A study of Mus musculus with 2 samples.

Results

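The catabolic genes of the branched-chain amino acids were measured in gastrocnemius, a calf muscle made mostly of fast fibres. The 10 genes are Bcat2, Bckdha, Bckdhb, Dbt, Bckdk, Ivd, Mccc1, Acadsb, Hibch and Hibadh, chosen by name from the pathway, of 55536 annotated genes in all. Each symbol was tied to 1 gene identifier through the names in the transcript tables, and all 10 were found in every table. Both libraries were total RNA of adult male 5xFAD/CAST mice aged 8 to 10 months, and the labels describe them as 5xFAD crossed to CAST. 5xFAD mice carry mutant human transgenes expressed from a neuronal promoter and are a model of amyloid deposition, while CAST is inbred and of wild castaneus origin. The labels give biological replicates 1 and 2 as separate biosamples under a single donor entry and do not say that they were separate animals. No other genotype, age or tissue was present, so the data give levels in 1 group and the distance between its 2 libraries, with no group comparison and no p-value.

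Leucine, isoleucine and valine are first stripped of their amino group by a branched-chain aminotransferase, a step for which skeletal muscle is a principal site. The mitochondrial branched-chain ketoacid dehydrogenase complex, BCKDH, then commits the resulting ketoacids to oxidation, and a dedicated kinase switches the complex off by phosphorylating it. Beyond BCKDH the routes part, with dehydrogenases on each branch, a carboxylase on the leucine branch and a hydrolase on the valine branch. They end in acetyl-CoA, acetoacetate and propionyl-CoA.

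Several of the genes had more than one transcript at a comparable level, and the next sequences show a splice difference for 3 of them, between the principal transcript and the other transcript of highest level. All are on the plus strand of chromosome 7 of mm10, taken from the GENCODE M21 transcripts, which give the reference strain's bases and not those of the CAST allele. Each runs 5′ to 3′ from 30 bases before the junction, and capitals mark the bases that one transcript of the pair holds and the other lacks.
Bcat2-201: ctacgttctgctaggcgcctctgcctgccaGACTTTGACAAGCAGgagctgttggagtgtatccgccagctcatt
Bcat2-202: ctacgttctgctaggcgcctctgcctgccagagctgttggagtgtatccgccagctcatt
Acadsb-201: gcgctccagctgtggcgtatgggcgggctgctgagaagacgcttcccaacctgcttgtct
Acadsb-204: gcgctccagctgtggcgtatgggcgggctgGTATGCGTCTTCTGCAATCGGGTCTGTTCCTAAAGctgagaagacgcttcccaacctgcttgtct
Bckdk-201: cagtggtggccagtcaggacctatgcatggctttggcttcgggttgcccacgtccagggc
Bckdk-202: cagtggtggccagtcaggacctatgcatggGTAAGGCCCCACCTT
The Bcat2 pair spans chr7:45584998-45585155, where the exon of Bcat2-201 starts 15 bases earlier, and the annotated coding sequences are 1179 bases in Bcat2-201 and 1164 bases in Bcat2-202. The Acadsb pair spans chr7:131410758-131424501, where the second exon of Acadsb-204 starts 35 bases earlier than that of the principal transcript, Acadsb-201. The Bckdk-201 junction spans chr7:127908050-127908196, and Bckdk-202 keeps the 87-base intron there, of which the first 15 bases are shown up to chr7:127908094.

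The libraries held 35163970 and 35412240 expected counts on annotated genes in replicates 1 and 2, and the 6 muscle fibre markers were all among the highest genes (Acta1, skeletal actin, at 18503 TPM on average). An expected count is a read count in which a read that matches several transcripts is divided among them, and TPM is that count per transcript length, scaled to the same total in each library. Of markers of other cell types, the highest on each list were Fabp4 of adipocytes at 107 TPM and Dcn of fibroblasts at 141 TPM. For endothelium it was Cdh5 at 14.8 TPM, and for macrophages C1qb at 4.95 TPM. All 3 kidney markers were listed at 0. Of the 5 hepatocyte markers only Apoa1 was at 0 in both libraries, and the median of that list was 0.055 TPM. Cyp2e1, on the hepatocyte list, averaged 6.83 TPM, and Myl2, on the slow fibre list, averaged 338 TPM. The libraries are of whole muscle, so fewer cells of a type and less RNA per cell cannot be told apart. Markers of other cells differed between the libraries. Summed adipocyte markers stood at 227 TPM in replicate 1 and 165 TPM in replicate 2, and summed endothelial markers at 48.0 TPM and 31.7 TPM. Summed macrophage markers stood at 18.4 TPM and 14.4 TPM, while summed fibroblast markers stood at 235 TPM and 239 TPM. By counts scaled for composition, 6 of 7 adipocyte and 5 of 5 endothelial markers were lower in replicate 2, and 3 of 4 fibroblast markers were higher. Of all genes averaging 100 counts or more, 49.3% were lower. The part of these marker differences in the results below was not tested.

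All 10 genes stood at 10 TPM or more in both libraries of the RSEM gene table, against 19% of all protein-coding genes (4191 of 22028), and 9 of 10 did in the kallisto-layout table, a second quantification of the same libraries, where Dbt had 9.79 TPM in replicate 2. Their mean levels spanned 11.5 to 70.9 TPM, and their median was 42.2 ± 0.520 TPM (SD, n = 2). In rank among protein-coding genes they lay between percentile 81.8 and percentile 96.5. No gene shared reads with another gene in the authors' estimate, since the posterior SD of the gene count was 0 for all 10 in both libraries.

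**Figure D1:**
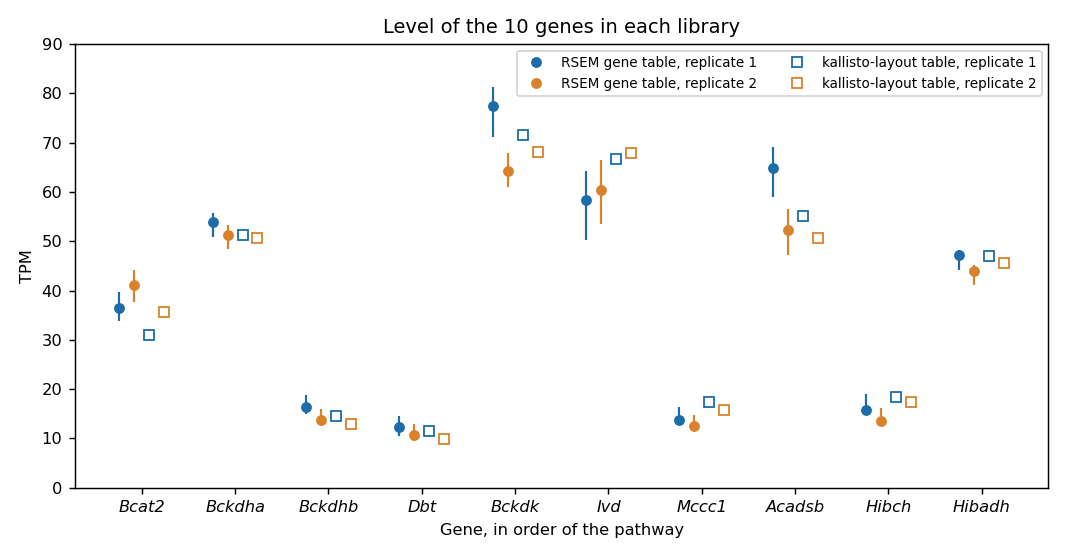
Level in TPM of each of the 10 genes in each library, with filled circles for the RSEM gene table, vertical bars for its deposited credibility interval, and open squares for the kallisto-layout table summed per gene. Bcat2, Bckdha, Bckdk, Ivd, Acadsb and Hibadh stand above 30 TPM in every library and table, and Bckdhb, Dbt, Mccc1 and Hibch below 20 TPM.

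Bcat2, the mitochondrial aminotransferase of the first step, lies on the plus strand of chromosome 7 (ENSMUSG00000030826.19, chr7:45570153-45589711). It had 36.6 TPM in replicate 1 and 41.2 TPM in replicate 2, from 1309 and 1406 expected counts, a mean of 38.9 ± 3.26 TPM (SD, n = 2). The cytosolic aminotransferase Bcat1 had 0.52 TPM in replicate 1 and 0.20 TPM in replicate 2, from 14 and 11 counts. The aminotransferase message of this muscle was thus almost wholly that of the mitochondrial enzyme: the TPM ratio of Bcat2 to Bcat1 was 70.3 in replicate 1 and 206 in replicate 2. Posterior mean TPM, another deposited estimate, gave 36.4 in replicate 1 and 51.8 in replicate 2. Beside the few counts of Bcat1, its effective length, the length by which a count is divided, stood at 1043 bases in replicate 1 and 2042 bases in replicate 2, so the size of this ratio is loosely fixed.

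The dehydrogenase complex is built from a decarboxylase of alpha and beta subunits, a transacylase core and a lipoamide dehydrogenase that it shares with other complexes. Bckdha, the decarboxylase alpha subunit (ENSMUSG00000060376.7, minus strand, chr7:25629946-25658981), had 54.0 TPM in replicate 1 and 51.3 TPM in replicate 2, a mean of 52.6 ± 1.92 TPM (SD, n = 2). Bckdhb, the decarboxylase beta subunit (ENSMUSG00000032263.14, plus strand, chr9:83925145-84124240), had 16.5 TPM in replicate 1 and 13.7 TPM in replicate 2, a mean of 15.1 ± 1.94 TPM. Dbt, the transacylase core (ENSMUSG00000000340.10, plus strand, chr3:116513070-116549981), had 12.3 TPM in replicate 1 and 10.7 TPM in replicate 2, a mean of 11.5 ± 1.12 TPM. The messages of the subunits were therefore unequal in both libraries, with the alpha subunit far above its partners. Alpha exceeded beta 3.28-fold in replicate 1 and 3.74-fold in replicate 2 (3.51 ± 0.323, SD, n = 2), and exceeded the core 4.40-fold in replicate 1 and 4.80-fold in replicate 2 (4.60 ± 0.284). Dld, the shared lipoamide dehydrogenase, averaged 76.0 ± 3.96 TPM and stood 6.42-fold and 6.85-fold above Dbt in replicates 1 and 2.

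Bckdk, the kinase that inactivates the complex (ENSMUSG00000030802.14, plus strand, chr7:127904082-127910221), was the most abundant of the 10. It had 77.5 TPM in replicate 1 and 64.3 TPM in replicate 2, a mean of 70.9 ± 9.31 TPM (SD, n = 2). Ppm1k, the mitochondrial phosphatase that reverses the kinase, had 5.12 TPM in replicate 1 and 3.83 TPM in replicate 2. Kinase message exceeded phosphatase message 15.1-fold in replicate 1 and 16.8-fold in replicate 2 (16.0 ± 1.18, SD, n = 2).

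On the leucine branch, Ivd, isovaleryl-CoA dehydrogenase (ENSMUSG00000027332.11, plus strand, chr2:118861954-118882909), had 58.4 TPM in replicate 1 and 60.4 TPM in replicate 2, a mean of 59.4 ± 1.38 TPM (SD, n = 2). Mccc1, the biotin-carrying subunit of the carboxylase that follows (ENSMUSG00000027709.9, minus strand, chr3:35959312-36000678), had 13.7 TPM in replicate 1 and 12.5 TPM in replicate 2, a mean of 13.1 ± 0.877 TPM. The dehydrogenase thus stood well above the next enzyme's subunit in both libraries. The partner subunit Mccc2 averaged 12.9 ± 0.184 TPM, and the ratio of Mccc1 to Mccc2 was 1.05 in replicate 1 and 0.979 in replicate 2 in the RSEM table. In the kallisto-layout table Mccc1 was the higher in both, 1.42-fold in replicate 1 and 1.31-fold in replicate 2 (1.37 ± 0.0738, SD, n = 2), so the balance of these subunits depended on the quantification.

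On the isoleucine branch, Acadsb, the short and branched chain acyl-CoA dehydrogenase (ENSMUSG00000030861.15, plus strand, chr7:131410601-131448944), had 64.8 TPM in replicate 1 and 52.2 TPM in replicate 2, a mean of 58.5 ± 8.86 TPM (SD, n = 2). On the valine branch, Hibch, 3-hydroxyisobutyryl-CoA hydrolase (ENSMUSG00000041426.12, plus strand, chr1:52844929-52920986), had 15.9 TPM in replicate 1 and 13.6 TPM in replicate 2, a mean of 14.7 ± 1.58 TPM. Hibadh, the dehydrogenase that oxidises the free acid made by Hibch (ENSMUSG00000029776.11, minus strand, chr6:52546228-52640389), had 47.1 TPM in replicate 1 and 44.0 TPM in replicate 2, a mean of 45.6 ± 2.22 TPM. The later valine enzyme was the higher of the pair, 2.97-fold in replicate 1 and 3.23-fold in replicate 2.

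In order of mean level, Bckdk led, followed by Ivd, Acadsb, Bckdha, Hibadh, Bcat2, Bckdhb, Hibch, Mccc1 and Dbt. The library values of Ivd, Acadsb and Bckdha overlapped from each gene to the next, as did those of Bckdhb, Hibch and Mccc1. These neighbours are therefore not resolved, although Ivd lay above Bckdha in both libraries without overlap. Bckdhb lay above Mccc1 by a narrow margin, its lowest value being 13.72 TPM and the highest of Mccc1 13.69 TPM. The kallisto-layout table gave the reverse order, so this pair is not resolved either. The other neighbours in the order did not overlap in the RSEM gene table. A gap separated the 6 genes at 36.6 TPM or more in both libraries from the 4 genes at 16.5 TPM or less.

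The kallisto-layout table gave the same 6 high and 4 low genes. No gene differed 1.5-fold or more between the quantifications (0 of 10, against 3.02% of 4400 protein-coding genes at 10 TPM or more). Mccc1 stood higher there, at 17.3 TPM in replicate 1 and 15.7 TPM in replicate 2, and Hibch at 18.4 TPM and 17.3 TPM in replicates 1 and 2. Bckdhb, at 14.5 TPM and 12.9 TPM in replicates 1 and 2, then stood below Hibch and Mccc1. Dbt was lowest in both quantifications, at 11.4 TPM and 9.79 TPM in replicates 1 and 2 of the kallisto-layout table.

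A wider list of 37 genes held the transporters, Bcat1, the partner subunits, the later enzymes of each branch, the electron acceptors and 3 regulators. It also held 6 related matrix enzymes, Hadhb and Hadha among them, with a median of 49.1 TPM. The median of the whole list was 18.2 ± 1.06 TPM (SD, n = 2), and 25 genes had 10 TPM or more in each library. The highest were Hadhb at 164 ± 4.91 TPM and Hadha at 131 ± 8.08 TPM, the subunits of the trifunctional protein of fatty acid oxidation, and Etfb at 124 ± 6.28 TPM, a subunit of the flavoprotein that takes electrons from Ivd and Acadsb. The lowest was Bcat1. By step, the median was 7.81 TPM for the 6 transporters, 31.1 TPM for 5 further leucine enzymes, 48.6 TPM for 3 further isoleucine enzymes, 31.2 TPM for 2 further valine enzymes, 22.2 TPM for 6 genes of the propionyl route and 104 TPM for 3 electron acceptors.

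Lists of neighbouring oxidative pathways give a scale for these levels. The 13 genes of the citric acid cycle list had a median of 218 ± 15.3 TPM, with Fh1, fumarase, lowest at 105 TPM, so that the lowest of them exceeded the highest of the 10 genes. The 9 genes of the pyruvate dehydrogenase complex and its regulators had a median of 73.0 ± 3.30 TPM, with the kinase Pdk2 highest at 225 TPM and the kinase Pdk1 lowest at 25.8 TPM, so that its range overlapped that of the 10 genes. These medians describe the lists and were not tested against each other.

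**Figure D2:**
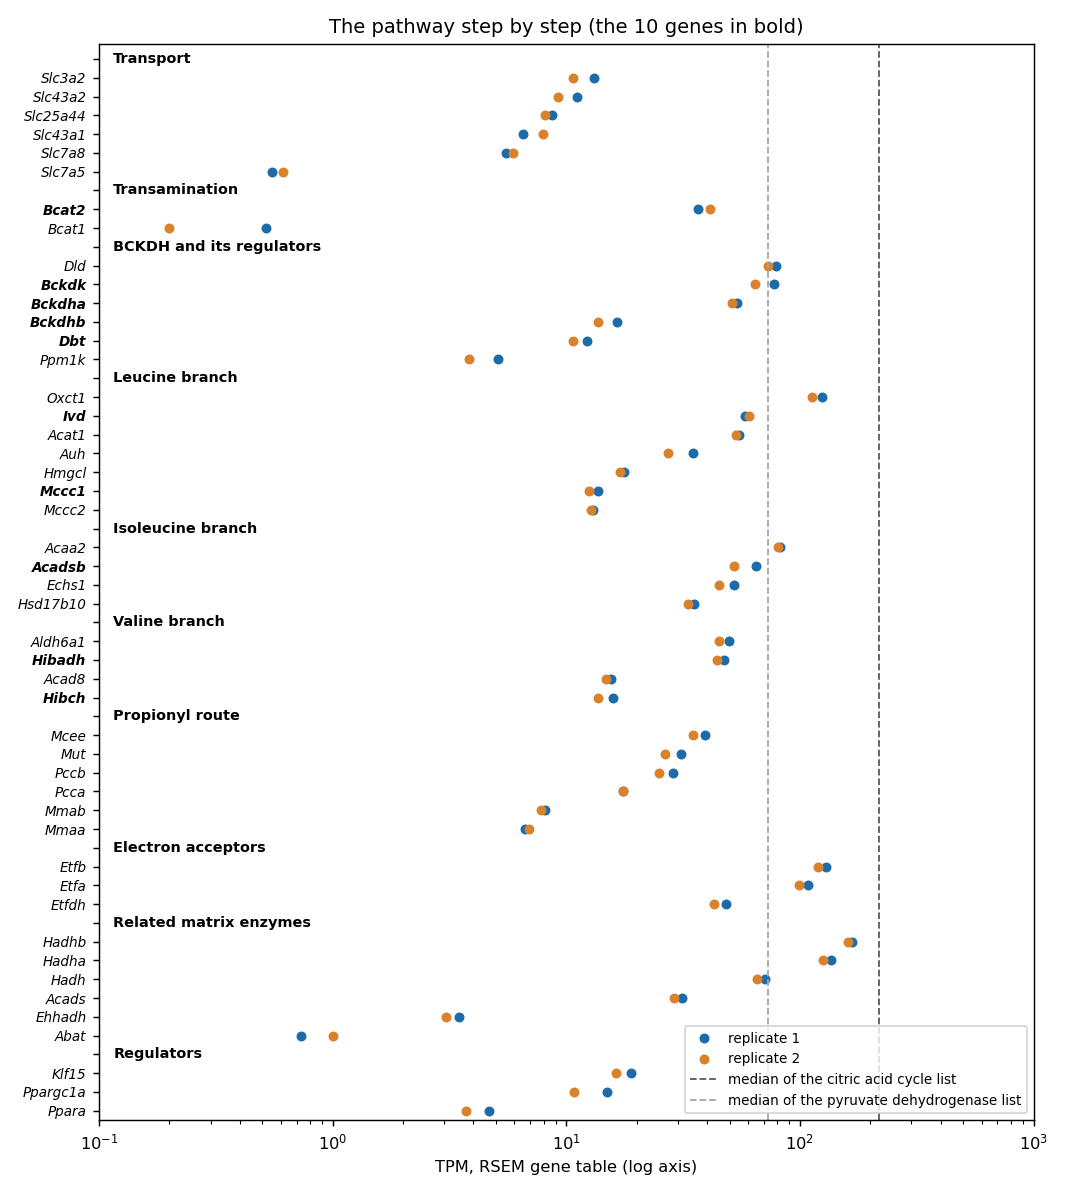
Level in TPM (log axis, RSEM gene table) of the 10 genes, in bold, and the 37 genes of the wider list, by step of the pathway, with 1 point for each library and dashed lines at the medians of the pyruvate dehydrogenase list (73.0 TPM) and the citric acid cycle list (218 TPM). Bcat1 lies far below Bcat2, Ppm1k far below Bckdk, and all of the 10 genes lie below the citric acid cycle median.

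The libraries were close to each other for these genes once scaled for composition. Log2 ratios of replicate 2 over replicate 1 used expected counts with TMM factors, which set the bulk of genes to no change. Their exact binomial 95% intervals cover counting error only and hold no variation between libraries. The intervals also treat reads as independent molecules, which reads are not. None of the 10 genes lay 1.5-fold or more apart, against 1.22% of the 9741 genes averaging 100 counts or more. The 10 genes had a median ratio of -0.01 on the log2 scale, and 6 of 10 ratios were below 0, beside 49.3% of all genes tested. Summed over the 10 genes, 17043 and 16532 counts in replicates 1 and 2 gave a log2 ratio of 0.01 with an interval of -0.02 to 0.04.

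Bcat2 had the highest ratio, a log2 ratio of 0.15 with an interval of 0.05 to 0.26, and the kallisto-layout counts gave 0.17. It was the single gene of the 10 whose counting interval left out 0, which 24.3% of all genes tested did, so the call is no mark of these genes. It also depended on the scaling: by library totals the interval of Bcat2 held 0 and those of Bckdhb, Bckdk, Acadsb and Hibch lay below it (4 of 10, against 30% of all genes), and by spike-in totals 6 of 10 lay above it (against 37.2% in either direction). These settings were added after the data were seen. Hibch, with 694 and 602 counts in replicates 1 and 2, had the lowest ratio, -0.15 with an interval of -0.31 to 0.01. Bckdhb, with 540 and 475 counts, had a ratio of -0.13. The other 7 genes lay between -0.05 and 0.06, and with 1 library on each side none of these ratios has a replicate check. In the wider list 0 of 34 genes with enough counts passed 1.5-fold, and 17 lay above and 17 below 0.

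The deposited TPM placed the libraries further apart for some genes than the counts did. TPM ratios had a median of -0.17 over the 10 genes and -0.13 over all genes, so most of that shift was shared by the whole library, and 8 of 10 were below 0, against 78.1% of all genes. Under library totals 7 of 10 were below 0, against 68.8% of all genes, and under spike-in totals 2 of 10, against 24.7%. Bcat2 stayed above 0 under every scaling tried, and Bckdhb and Hibch below it, while the other 7 genes took either sign, so the direction of those 7 small ratios followed the scaling.

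Less the median of all genes, TPM and count ratios of the 10 genes lay up to 0.19 apart on the log2 scale, and none reached 0.2, against 13.1% of genes. Bckdk had 3251 and 3112 counts in replicates 1 and 2, a log2 count ratio of -0.01, while its TPM ratio was -0.27. The effective length by which RSEM divides the count of Bckdk, an average over its transcripts, was 1641 bases in replicate 1 and 1781 bases in replicate 2. That of Acadsb was 1463 bases in replicate 1 and 1613 bases in replicate 2, beside a count ratio of -0.03 and a TPM ratio of -0.31. Ivd went the other way, with 1768 bases in replicate 1 and 1541 bases in replicate 2, a count ratio of -0.01 and a TPM ratio of 0.05. These TPM ratios also hold the shift of all genes, a median of -0.13. Beside it, the log2 ratio of effective length, replicate 2 over replicate 1, was 0.12 for Bckdk, 0.14 for Acadsb and -0.20 for Ivd. The TPM of these genes therefore depended in part on which transcripts their reads were assigned to.

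**Figure D3:**
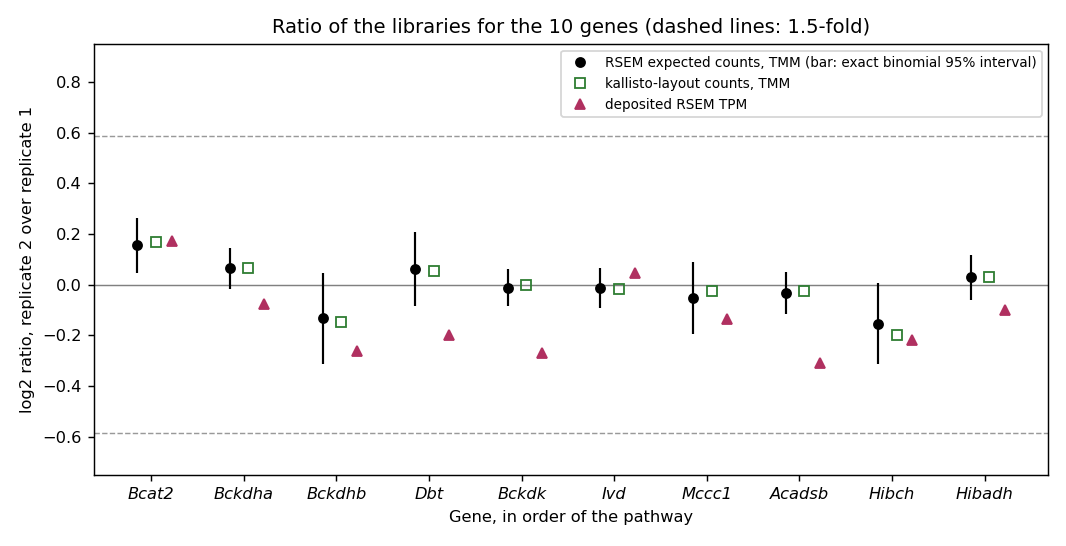
Log2 ratio of replicate 2 over replicate 1 for each of the 10 genes, from RSEM expected counts (black, bars are exact binomial 95% intervals of counting error), kallisto-layout counts (green squares) and deposited TPM (red triangles), with dashed lines at 1.5-fold. No value passes 1.5-fold, the count ratios of both quantifications lie side by side, and the TPM ratios of Bckdha, Dbt, Bckdk, Acadsb and Hibadh lie below their count intervals.

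The annotation gives the 10 genes 62 transcripts, of which 23 had 1 TPM or more in both libraries of the RSEM table. The same share over all transcripts was not computed, so this count only describes these genes. For most genes the bulk of TPM was in transcripts annotated as protein coding, and for Acadsb and Ivd it was not. These were 2 of 10 genes with under 50% of TPM in protein-coding transcripts, against 7% of protein-coding genes at 10 TPM or more, and the kallisto-layout table gave the same 2, against 8.77%. Bckdha was wholly coding, with Bckdha-201 taking all of its TPM in both libraries, and Hibadh nearly so, at 97.9% in replicate 1 and 96.2% in replicate 2.

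**Figure D4:**
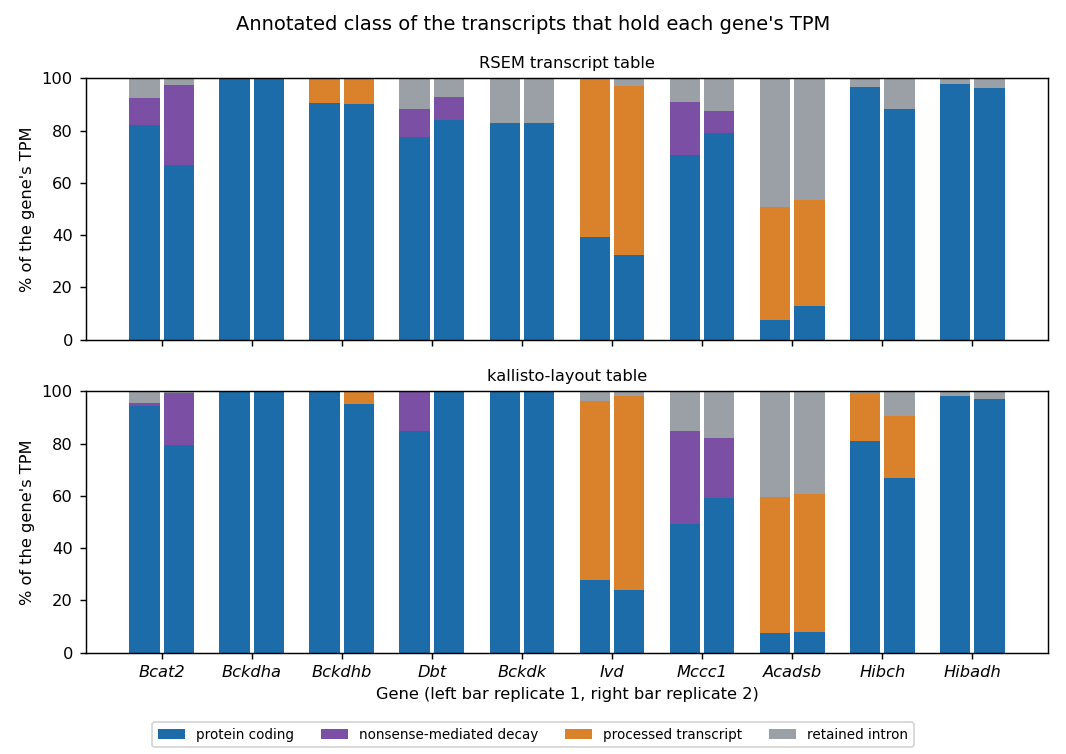
Share of each gene's TPM, in percent, held by transcripts of each annotated class, with the left bar of a pair for replicate 1 and the right bar for replicate 2, in the RSEM transcript table (top) and the kallisto-layout table (bottom). Acadsb stands out with 7.54% and 12.7% of its RSEM TPM in protein-coding transcripts in replicates 1 and 2, followed by Ivd with 39.4% and 32.6%.

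In Acadsb, protein-coding transcripts held 7.54% of TPM in replicate 1 and 12.7% in replicate 2, and 7.45% and 7.74% in the kallisto-layout table. Acadsb-204, a processed transcript of 600 bases that carries the 35 capital bases shown above, had 28.0 TPM in replicate 1 and 21.3 TPM in replicate 2. Acadsb-207, of 2827 bases and annotated as a retained intron, had 22.4 TPM in replicate 1 and 19.0 TPM in replicate 2. Neither has an annotated reading frame, yet both are made mainly of the exons of the coding transcript: 565 of the 600 bases of Acadsb-204 and 2691 of the 2827 bases of Acadsb-207 lie in exons of Acadsb-201. Acadsb-204 covers the 5′ exons and Acadsb-207 the 3′ exons with a shorter last exon, so that together they touch every exon of Acadsb-201. The full-length Acadsb-201, of 6081 bases, had 1.35 TPM in replicate 1 and 1.18 TPM in replicate 2, and Acadsb-202, a coding transcript that keeps the last intron, had 3.53 TPM and 5.45 TPM in replicates 1 and 2.

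The kallisto-layout table gave Acadsb-204 28.7 TPM in replicate 1 and 26.9 TPM in replicate 2, and Acadsb-207 21.8 TPM and 19.8 TPM, close to the RSEM values. Acadsb-206, of 429 bases, had 9.47 TPM in replicate 1 and 5.24 TPM in replicate 2 of the RSEM table, but 0.534 TPM and 0 TPM in the kallisto-layout table. By expected counts, in which long transcripts weigh more than in TPM, 17.4% and 23.7% of Acadsb reads in replicates 1 and 2 were assigned to protein-coding transcripts and 64.6% and 61.6% to Acadsb-207. Acadsb therefore stayed under 50% by counts in both libraries.

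In Ivd the measure decided. The single protein-coding transcript, Ivd-201 of 3665 bases, held 39.4% of TPM in replicate 1 and 32.6% in replicate 2, but 79.4% and 75.3% of expected counts. Ivd-207, of 1010 bases, had 15.3 TPM in replicate 1 and 13.4 TPM in replicate 2, and Ivd-206, of 606 bases, had 10.3 TPM and 15.6 TPM in replicates 1 and 2. These are processed transcripts whose bases lie to 90.8% and 82.7% in exons of Ivd-201. Ivd-201 led in the RSEM table, and in the kallisto-layout table Ivd-206 led on average, with 21.3 TPM in replicate 1 and 28.4 TPM in replicate 2.

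**Figure D5:**
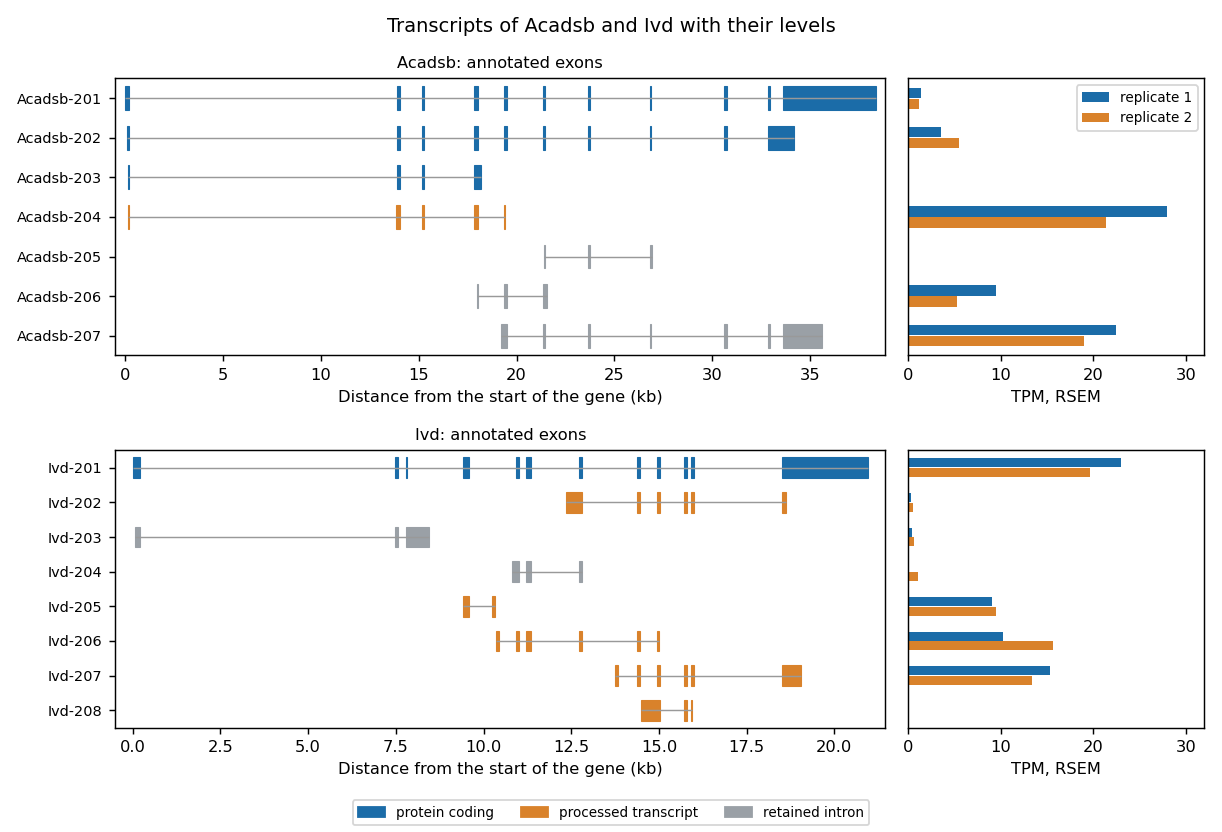
Left, annotated exons (boxes, coloured by transcript class) and introns (lines) of the transcripts of Acadsb and Ivd, by distance from the start of the gene in kb. Right, RSEM TPM of each transcript in each library, where Acadsb-204 (28.0 and 21.3 TPM in replicates 1 and 2) covers the 5′ exons, Acadsb-207 (22.4 and 19.0 TPM) the 3′ exons, and the full-length Acadsb-201 has 1.35 and 1.18 TPM.

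Bckdk was led in both libraries and both tables by Bckdk-202, the coding transcript that keeps the 87-base intron whose first bases are in capitals above. Bckdk-202 had 40.8 TPM in replicate 1 and 42.1 TPM in replicate 2, and 40.1 TPM and 39.3 TPM in the kallisto-layout table. The annotated coding sequence is 1095 bases in Bckdk-202 and 1236 bases in Bckdk-201, which splices the intron out. The 2 transcripts also differ at their ends, and their lengths are 1792 and 3405 bases. Bckdk-202 begins 680 bases after the gene start, and its last exon, which holds the intron, has 688 bases. The last exon of Bckdk-201 has 2055 bases. Whether reads went to Bckdk-202 for the intron or for its ends was not tested. Bckdk-201 had 12.6 TPM in replicate 1 and 10.5 TPM in replicate 2. Among the shorter transcripts the tables differed: Bckdk-203, a retained intron, had 13.3 TPM and 11.1 TPM in replicates 1 and 2 of the RSEM table and 0.168 TPM and 0.169 TPM in the kallisto-layout table, while Bckdk-204 had 0 TPM and 0.69 TPM in the RSEM table and 19.2 TPM and 20.9 TPM in the kallisto-layout table. Bckdk-205 was listed at 10.7 TPM in replicate 1, with a deposited credibility interval of 6.15 to 15.8 TPM, and at 0 in replicate 2. Bckdk as a whole was lower in replicate 2 by TPM and nearly level by count, as given above.

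Bcat2 was divided between the splice forms shown above and later starts. Bcat2-202, which lacks the 15 capital bases, had 17.3 TPM in replicate 1 and 12.1 TPM in replicate 2 of the RSEM table and was at or near 0 in both libraries of the kallisto-layout table. Bcat2-201, which has them, had 11.6 TPM and 10.0 TPM in replicates 1 and 2. Bcat2-208, which begins at a later start and holds the same 15 bases, had 0 TPM and 3.09 TPM in the RSEM table and 14.1 TPM and 18.7 TPM in the kallisto-layout table. In the kallisto-layout table Bcat2-201 had 14.5 TPM in replicate 1, just above Bcat2-208, and 9.02 TPM in replicate 2, below it. In replicate 2 of the RSEM table Bcat2-204, at 12.5 TPM, stood just above Bcat2-202. The choice between these forms was thus not settled by the tables, and the leader also changed between libraries. By mean over the libraries, the leading transcript of Bcat2 and of Ivd differed between the tables (2 of 10 genes, against 16.4% of genes with several transcripts).

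Bcat2-204, annotated for nonsense-mediated decay, was higher in replicate 2 in both tables. It had 3.80 TPM in replicate 1 and 12.5 TPM in replicate 2 of the RSEM table, with credibility intervals of 0.982 to 7.20 TPM and 9.13 to 15.7 TPM, and 0.332 TPM and 7.06 TPM in the kallisto-layout table. These intervals describe the assignment of reads within 1 library each. They failed to overlap for 7 of the 33 transcripts at 1 TPM or more in either library, Bckdk-205 and Mccc1-205 among them. The same share over all transcripts was not computed, so this count is no mark of these genes. All 917 bases of Bcat2-204 lie in exons of Bcat2-201, and it lacks an exon of 86 bases. Protein-coding transcripts held 82.0% of Bcat2 TPM in replicate 1 and 67.0% in replicate 2.

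The remaining genes were led by 1 coding transcript in the RSEM table. Dbt-201 had 8.84 TPM in replicate 1 and 8.52 TPM in replicate 2, and Hibch-201 had 15.3 TPM and 12.0 TPM. Mccc1-201 had 9.70 TPM in replicate 1 and 9.85 TPM in replicate 2, while Mccc1-205, annotated for nonsense-mediated decay, had 2.75 TPM and 1.05 TPM. Protein-coding transcripts held 70.9% of Mccc1 TPM in replicate 1 and 79.1% in replicate 2, against 49.1% and 59.3% in the kallisto-layout table. Bckdhb-201 had 14.9 TPM in replicate 1 and 10.9 TPM in replicate 2 of the RSEM table and 13.5 TPM and 3.62 TPM in the kallisto-layout table, where Bckdhb-206 took 46.4% of replicate 2. Bckdhb-206 starts 5 bases away from Bckdhb-201 and shares its exons, and the pair together held 92.8% in replicate 1 and 74.5% in replicate 2 of that table.

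Counting only protein-coding transcripts, a measure added after the data were seen, changed the order of the genes. Bckdk stayed highest at 58.7 TPM, followed by Bckdha at 52.6 TPM, Hibadh at 44.2 TPM, Bcat2 at 28.8 TPM and Ivd at 21.3 TPM. Acadsb became the lowest at 5.76 TPM, below Dbt at 9.26 TPM. The high TPM of Ivd and Acadsb was thus assigned largely to transcripts without an annotated reading frame. For Ivd most expected counts were nevertheless on the coding transcript, as given above. The highest of these other transcripts lie mostly in exons of the coding transcript, and whether the RNA itself lacked a reading frame was not tested.

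Other annotated genes overlap 8 of the 10 genes when whole gene spans are taken, introns included. The same share over all genes was not computed. The strand setting of the authors' counting was not stated in the labels or headers, and reads counted in the wrong gene of a pair were not tested for. The overlapping genes' own counts were small. The most was in Gm4596, a pseudogene in an intron of Dbt on the opposite strand, with 37.0 and 56.9 expected counts in replicates 1 and 2, against 759 and 765 in Dbt. B3gnt8, opposite Bckdha, had 28 and 30 counts, against 2483 and 2505 in Bckdha.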

How the data were processed

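Total RNA of 2 gastrocnemius libraries, each from 300 ng of RNA, was sequenced with a directional library kit, reduced ribosomal RNA and ERCC spike-in RNA, per the labels. Per the file headers, the deposited gene and transcript tables of RSEM hold expected counts, TPM with credibility intervals, and the percent of a gene held by each transcript. The deposited table in the layout of kallisto holds estimated counts and TPM, which were summed per gene here. The build is mm10, per the labels, with GENCODE M21 identifiers. Aligner, program versions and strand setting: not given in the sources used here. ERCC and phiX rows held 0.527% and 0.474% of counts in replicates 1 and 2 and were left out, with 26248 short unnamed rows.

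Levels are means ± SD over 2 libraries. Ratios used rounded expected counts, TMM factors (edgeR 4.0.16) from genes averaging 10 counts or more, and 0.5 counts added as a prior. Shares over all genes used those averaging 100 counts or 10 TPM or more. Ratios of kallisto-layout to RSEM TPM used a pseudocount of 0.1. Tools were R 4.3.3, DESeq2 1.42.0 (size factors as an alternative), scipy 1.17.1 (intervals) and pandas 2.3.3. Other alternatives were library, spike-in and TPM scaling, other count minimums and prior, posterior means and each library alone. The ratio step was tested on simulated data.

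The 10 genes, the lists, the marker lists and the tests were chosen with earlier results of these data known. Named genes are the 10 genes; of the wider list the 3 highest, the lowest, the partners in 4 TPM ratios and any gene past 1.5-fold; of the comparison lists the highest and lowest; and of each marker list the highest. An item that this rule names is not reported here. Dld and Apoa1, the genes named in the closing section and the overlapping genes were named after their values were seen. Promoter sequences were not used, since no measurement bears on them.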

Additional observations from a re-analysis of the deposited data

How the results depend on the processing

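No paired analysis was possible because the series has 1 group. None of the 10 genes passed 1.5-fold under any scaling tried. The median level of the 10 genes was 39.8 TPM in the kallisto-layout table, 94.4 TPM when scaled to nuclear protein-coding genes and 17.6 TPM over protein-coding transcripts, and 41.85 to 42.6 TPM in single libraries. The wider list's median was 21.4 TPM in the kallisto-layout table, 20.3 TPM from posterior means, 40.7 TPM over nuclear protein-coding genes, and 17.5 to 19.0 TPM in single libraries. At a minimum of 20 TPM 6 genes passed, at 5 TPM 10, and 9 did at 10 TPM in the kallisto-layout table. The median log2 ratio was -0.073 by library totals, 0.080 by spike-in totals and -0.17 by deposited TPM, where all genes moved to -0.06, 0.09 and -0.13. By isoform counts 1 gene had under 50% in coding transcripts. The ratio of Bckdk to Ppm1k was 17.2 in the kallisto-layout table and 14.2 from posterior means, and that of Mccc1 to Mccc2 was 1.37 in the kallisto-layout table; the cause was not tested. Posterior means gave a Bcat2 to Bcat1 ratio of 44.1, and single libraries 70.3 to 206. With 1 library on each side, no smallest detectable difference can be stated, because the counting intervals cover counting error only.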

Other observations

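Of the 34 genes of the wider list with a mean count of at least 100, 6 had a counting interval that left out 0, 3 in each direction. With TMM factors this was a smaller share than the 24.3% of all genes tested, and the 6 were picked here after their values were seen. By library totals 1 lay above and 12 below 0 (13 of 34, against 30% of all genes). By spike-in totals 18 lay above and 1 below (19 of 34, against 37.2%). All genes tested split alike, with 523 above and 2398 below by library totals, and 3204 above and 424 below by spike-in totals. Both the split and the standing against all genes thus followed the scaling. Ppargc1a, a coactivator of mitochondrial genes, had 10.8 TPM in replicate 2 and 14.9 TPM in replicate 1, with a log2 ratio of -0.28 and an interval of -0.39 to -0.16. Auh, an enzyme of the leucine branch, had a ratio of -0.20, and Slc43a2, an amino acid transporter of the cell membrane, a ratio of -0.14. Slc7a8, another such transporter, had a ratio of 0.24, Oxct1, an enzyme of ketone body use, 0.10, and Acaa2, a mitochondrial thiolase, 0.08. All 3 regulators on the list lay below 0, Klf15 at -0.06 and Ppara at -0.20 with intervals that held 0. These intervals cover counting error alone. The summed slow fibre markers also stood lower in replicate 2, at 956 TPM, than in replicate 1, at 1085 TPM, as did the adipocyte and endothelial markers. TPM ratios of all genes had a median of -0.13, so part of these drops in TPM was shared by the whole library. By TMM-scaled counts the median log2 ratio was -0.07 for slow fibre, -0.37 for adipocyte and -0.42 for endothelial markers. It was -0.11 for macrophage, 0.19 for fibroblast and 0.09 for skeletal muscle fibre markers. The part of these marker differences in the gene ratios was not tested.

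In the wider list, 2 of 26 genes at a mean of 10 TPM or more had under 50% of RSEM TPM in protein-coding transcripts, near the 7% of all such genes. They were Hadha, at 19.8%, and Acad8, the isobutyryl-CoA dehydrogenase of the valine branch, at 48.6%. By expected counts Hadha stood at 30.5% and Acad8 at 78.6%. In the kallisto-layout table the count was 4 of 26, against 8.77% of all such genes, with Hsd17b10 at 0.287% and Oxct1 at 43.3% in addition, genes that stood at 97.0% and 59.3% in the RSEM table.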
